A study of Homo sapiens with 6 samples.

Results

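The genes described here are 10 early response genes: the zinc finger gene EGR1, the orphan nuclear receptor gene NR4A1, the Krüppel-like factor genes KLF4, KLF6 and KLF10, the immediate early response genes IER2, IER3 and IER5, and ZFP36 and ZFP36L1, which encode mRNA decay proteins. They were chosen by name, with earlier results of these data known. Each was taken by its Ensembl gene ID from the 58288 genes of the expression table. All 10 were found, and 9 of them were among the 12634 genes that averaged at least 1 FPKM across the 6 libraries and were tested. FPKM, the fragments per kilobase of transcript scaled to the mapped fragments of the library, is a level per transcript length. KLF4 lay below this filter and is given by its values alone.

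The study asked how SUMOylation of MYB, a transcription factor of blood progenitors, affects the genes it regulates. K562, a human erythroleukemic cell line, was used in clones that stably expressed 3xFLAG-2KR-Myb-HA, whose SUMO-acceptor lysines were replaced by arginine, or 3xFLAG-ANAA-Myb-HA, in which a SUMO-interaction motif is mutated. Both were transfected with the siRNA si2992 to deplete endogenous MYB, kept under 200 µg/ml G418 and harvested for RNA 24 h later. There were 3 replicates, labelled biological, of each rescue. Each mutant was represented by 1 clone, so the mutant and the clone cannot be told apart, and the p-values measure the spread between libraries of a clone. Control, knockdown and WT-MYB libraries were not used here, so every difference is one between the 2 mutants and none is a response to MYB itself.

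Early response genes are transcribed within minutes of a stimulus such as a growth factor or a stress, by factors that already sit in the cell, and do not need new protein synthesis. Serum response factor with its ETS partners (acting at CArG boxes), and CREB and ATF factors (acting at cAMP response elements), are the best known of these inducers. The mRNAs of early response genes are mostly short-lived, many carry AU-rich elements in the 3′ untranslated region, and ZFP36 family proteins bind such elements and recruit the deadenylase that starts decay. EGR1 and the KLF proteins are themselves transcription factors that bind GC-rich DNA, so the set holds both factors and the regulators that end the response.

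The promoters of EGR1, KLF6, ZFP36L1 and ZFP36 are shown because they hold, or lack, the response elements described below, and because 2 of these genes passed the test and 2 did not. RefSeq promoters of GRCh38.p14, from 250 bases before to 50 bases after the start, were matched by symbol for 8 of the 10 genes, with 10 windows in all. KLF10 and IER3 had no matched window and were not searched. Each is written 5′ to 3′ on the strand of the gene, with capitals for CArG boxes, EGR sites and the cAMP response element or its core TGACG. The windows are chr5:138465229-138465528 on the plus strand for EGR1, chr10:3785160-3785459 on the minus strand for KLF6, chr14:68793367-68793666 on the minus strand for ZFP36L1, which is the downstream one of its 2 starts, and chr19:39406597-39406896 on the plus strand for ZFP36.
EGR1: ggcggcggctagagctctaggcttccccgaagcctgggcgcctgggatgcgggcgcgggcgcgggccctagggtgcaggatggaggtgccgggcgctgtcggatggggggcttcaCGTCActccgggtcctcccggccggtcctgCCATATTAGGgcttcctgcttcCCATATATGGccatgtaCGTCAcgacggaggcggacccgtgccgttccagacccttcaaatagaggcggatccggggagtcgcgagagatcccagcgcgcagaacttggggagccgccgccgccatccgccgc
KLF6: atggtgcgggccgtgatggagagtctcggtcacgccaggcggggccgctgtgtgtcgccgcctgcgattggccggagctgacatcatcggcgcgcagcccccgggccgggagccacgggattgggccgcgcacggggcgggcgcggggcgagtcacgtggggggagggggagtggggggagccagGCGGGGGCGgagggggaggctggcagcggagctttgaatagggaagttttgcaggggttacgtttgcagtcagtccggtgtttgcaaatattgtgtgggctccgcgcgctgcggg
ZFP36L1: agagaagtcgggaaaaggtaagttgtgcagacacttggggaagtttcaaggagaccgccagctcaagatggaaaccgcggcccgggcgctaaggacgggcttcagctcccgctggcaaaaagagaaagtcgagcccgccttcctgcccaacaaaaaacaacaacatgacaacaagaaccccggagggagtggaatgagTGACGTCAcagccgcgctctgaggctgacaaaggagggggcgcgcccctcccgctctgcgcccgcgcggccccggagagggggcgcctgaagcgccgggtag
ZFP36: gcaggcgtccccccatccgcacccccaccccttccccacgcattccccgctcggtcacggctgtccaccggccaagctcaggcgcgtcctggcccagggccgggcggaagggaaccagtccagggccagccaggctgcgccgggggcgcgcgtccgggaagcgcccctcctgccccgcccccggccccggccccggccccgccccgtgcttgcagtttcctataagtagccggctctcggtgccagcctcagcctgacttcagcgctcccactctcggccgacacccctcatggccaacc

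Both strands were searched, and a match is a description of the letters, not of a bound site. Of the 8 members with a window, which leave out KLF10 and IER3, only EGR1 had a CArG box. Its window held 2, at 105 to 96 and 83 to 74 bases upstream of the start. At least 1 CArG box stood in 1.29% of the 35116 RefSeq promoter windows and at least 2 in 0.0313%. The full cAMP response element TGACGTCA was found in the downstream window of ZFP36L1 (1.85% of all windows and 3.01% of the 13354 windows of tested genes). The core TGACG, which the full element contains on both strands, was found in EGR1, KLF4, IER2 and ZFP36L1 (24.6% of all windows and 33% of those of tested genes). The EGR site, GCGGGGGCG or GCGTGGGCG, was found in KLF6, 65 to 57 bases upstream of the start (5.77% of all windows and 8.95% of those of tested genes). The window of ZFP36 held none of these elements and 3 copies of the GC box GGGCGG, which 5 of the 8 members carried (45% of all windows and 67.1% of those of tested genes). The MYB site, CAACNG or TAACNG, was found in IER2 and IER5 (46.2% of all windows and 44% of those of tested genes), neither of which passed the test described below, and the ETS site CCGGAAG in IER2 (10.3% of all windows and 18.7% of those of tested genes).

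KLF6, KLF10 and EGR1 were higher in 2KR-MYB cells than in ANAA-MYB cells, and the other 6 tested members did not pass the threshold of an adjusted p under 0.01 (limma, Benjamini-Hochberg over all tested genes). The 3 called members stand beside 5.57% of all tested genes called higher in 2KR-MYB cells. Because the members were chosen with earlier results of these data known, the counts and the median below are no independent evidence of a direction. No member was called higher in ANAA-MYB cells, where 7.42% of tested genes were, and in both directions together 13.0% of tested genes were called. At an unadjusted p under 0.05, 5 members were higher in 2KR-MYB cells and 1, IER3, was higher in ANAA-MYB cells. The same 6 had an adjusted p under 0.05, as did 26.9% of tested genes. The share of tested genes at the unadjusted cutoff is at least as large, but was not computed. Counts at that cutoff, here and below, therefore stand without their background. The median log2 fold change (2KR-MYB minus ANAA-MYB, from log2(FPKM + 1), which understates low genes) was 0.34 over the 9 tested members and -0.015 over all tested genes. All 3 libraries of the 2KR-MYB rescue lay above all 3 of the ANAA-MYB rescue in 5 of the 9 tested members (20.1% of tested genes) and below them in 1 (24.8% of tested genes). Of the calls over all tested genes, 42.9% were higher in 2KR-MYB cells, a share that became 54.5% under upper quartile scaling and 55.9% when libraries were scaled to equal sums. The 3 calls of members held under both scalings. Without replicate 3 of the 2KR-MYB rescue, in which most members were lowest, there were 4, and without any other 1 library, without a variance trend or without the filter on low values there were 2.

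**Figure D1:**
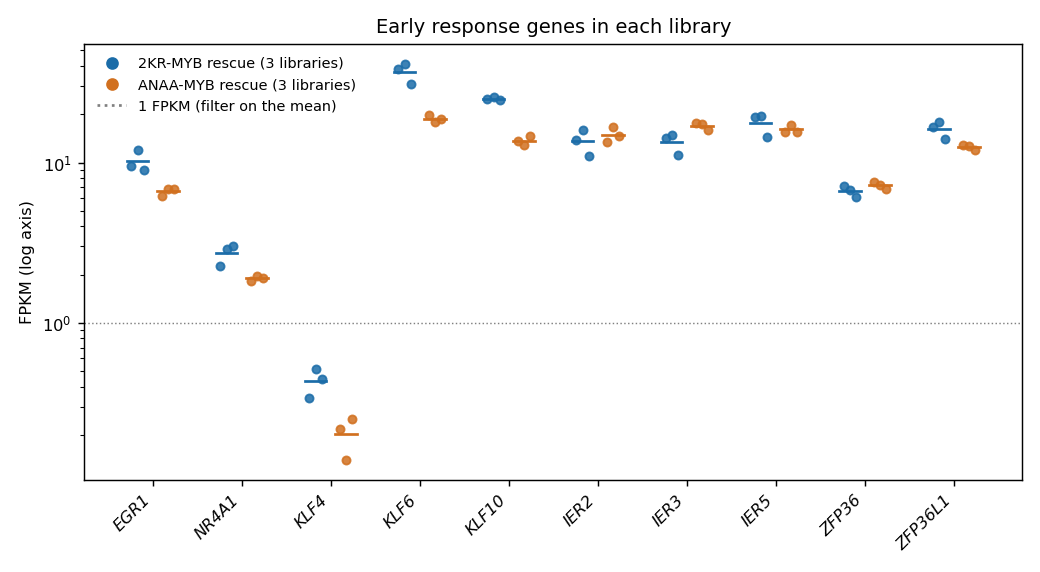
FPKM of the 10 early response genes on a log axis, with 1 point per library and a bar at the mean of each rescue (3 libraries each). The libraries of KLF6, KLF10 and EGR1 were fully apart, those of IER2, IER5 and ZFP36 overlapped, and KLF4 lay under 1 FPKM in each library.

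Among the transcription factors, KLF6, which encodes a broadly expressed Krüppel-like factor (ENSG00000067082, chromosome 10, 3775996 to 3785209, GRCh38), had the largest log2 fold change of the tested members. It stood at 38.3, 41.3 and 31.1 FPKM in 2KR-MYB cells and at 19.7, 18.0 and 18.6 FPKM in ANAA-MYB cells. The groups did not overlap, and the lowest 2KR-MYB library, replicate 3, was still well above the highest ANAA-MYB library. The log2 fold change was 0.93 (SE, the standard error, 0.098, limma adjusted p = 0.00049), and the means were 36.9 ± 5.25 and 18.8 ± 0.860 FPKM (SD, n = 3 each). KLF6 was called in all 17 alternative settings.

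KLF10, also known as a TGF-β-inducible early gene (ENSG00000155090, chromosome 8, 102648784 to 102655725), had the smallest standard error of the called members. Its libraries held 25.0, 25.7 and 24.5 FPKM in 2KR-MYB cells and 13.7, 12.8 and 14.6 FPKM in ANAA-MYB cells. The 2KR-MYB values lay close together and far from the other group. The difference was 0.83 on the log2 scale (SE 0.060, limma adjusted p = 9.5e-05), and it was called in all 17 alternatives.

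EGR1, which links growth factor signals to its target genes (ENSG00000120738, chromosome 5, 138465479 to 138469303), was measured at 9.56, 12.0 and 8.98 FPKM in 2KR-MYB cells and at 6.19, 6.87 and 6.81 FPKM in ANAA-MYB cells. The groups were apart, with replicate 2 of the 2KR-MYB rescue the highest. The means were 10.2 ± 1.58 and 6.62 ± 0.376 FPKM (SD, n = 3 each), a ratio of 1.54, with a log2 fold change of 0.54 (SE 0.10, limma adjusted p = 0.0063). This call was the weakest of the 3 and was lost in 8 of 17 alternatives. The adjusted p from limma was 0.017 without replicate 1 and 0.012 without replicate 2 of the 2KR-MYB rescue, and 0.026, 0.020 and 0.021 without replicates 1, 2 and 3 of the ANAA-MYB rescue. It was 0.033 without the filter on low values and 0.010 without a variance trend. The direction was kept in each, with log2 fold changes from 0.43 to 0.62.

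NR4A1, the orphan receptor also called Nur77 (ENSG00000123358, chromosome 12, 52022832 to 52059503), was low, at 2.27, 2.87 and 3.00 FPKM in 2KR-MYB cells and 1.84, 1.96 and 1.91 FPKM in ANAA-MYB cells. The groups did not overlap, and the lowest 2KR-MYB library, replicate 1, lay nearest to the ANAA-MYB libraries. The log2 fold change of 0.35 (standard error 0.10) did not pass (adjusted p = 0.037, limma). KLF4, best known as a reprogramming factor (ENSG00000136826, chromosome 9, 107484852 to 107489769), was near the bottom of the scale. Its values were 0.341, 0.519 and 0.448 FPKM in 2KR-MYB cells and 0.218, 0.140 and 0.251 FPKM in ANAA-MYB cells. These groups were also apart, at levels where the number of reads behind a value is not known, and the exact permutation test gave p = 0.1, the smallest that 3 libraries against 3 allow. In the fit without the filter on low values, the adjusted p of KLF4 was 0.063 (limma).

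The 3 IER genes share a name and no common structure: IER2 and IER5 encode related nuclear proteins, whereas IER3 encodes a membrane protein linked to cell survival. None of the 3 passed the test. IER3 (ENSG00000137331, chromosome 6, 30743199 to 30744547) was the member whose 2KR-MYB libraries all lay below the ANAA-MYB libraries. It held 14.2, 14.9 and 11.2 FPKM in 2KR-MYB cells and 17.7, 17.4 and 15.9 FPKM in ANAA-MYB cells. The log2 fold change was -0.33 (SE 0.10, limma adjusted p = 0.047). IER5 (ENSG00000162783, chromosome 1, 181088700 to 181092900) held 19.1, 19.6 and 14.4 FPKM against 15.6, 17.2 and 15.5 FPKM in ANAA-MYB cells. Its groups overlapped, because replicate 3 of the 2KR-MYB rescue was the lowest of the 6 libraries and the other two were the highest. The log2 fold change of IER5 was 0.12 (SE 0.11, limma adjusted p = 0.45). It was 0.064, 0.045 and 0.25 without replicates 1, 2 and 3 of the 2KR-MYB rescue, and none of these passed. IER2 (ENSG00000160888, chromosome 19, 13150411 to 13154911) was measured at 13.8, 16.0 and 10.9 FPKM in 2KR-MYB cells and 13.4, 16.6 and 14.6 FPKM in ANAA-MYB cells. Its log2 fold change of -0.13 (SE 0.13, limma adjusted p = 0.49) was within the spread of the libraries, and became 0.0058 without replicate 3 of the 2KR-MYB rescue.

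ZFP36 and ZFP36L1 encode the CCCH zinc finger proteins that bind AU-rich elements. ZFP36 (ENSG00000128016, chromosome 19, 39406847 to 39409407) held 7.11, 6.72 and 6.11 FPKM in 2KR-MYB cells and 7.56, 7.20 and 6.83 FPKM in ANAA-MYB cells. These groups overlapped, and the log2 fold change was -0.10 (SE 0.074, limma adjusted p = 0.35). ZFP36L1 (ENSG00000185650, chromosome 14, 68787655 to 68796243) held 16.7, 17.9 and 14.0 FPKM against 12.9, 12.6 and 12.0 FPKM in ANAA-MYB cells. All 3 libraries of the 2KR-MYB rescue were above the other group, with a log2 fold change of 0.34 (SE 0.087, limma adjusted p = 0.022). ZFP36L1 passed the threshold when replicate 3 of the 2KR-MYB rescue was left out (log2 fold change 0.44, adjusted p = 0.0045, limma). Without any other 1 library its adjusted p lay between 0.047 and 0.071, and without the filter on low values it was 0.073 (limma).

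The ratio of ZFP36L1 to ZFP36 within a library does not change when all genes of the library are scaled by a common factor, though quantile normalization can move it. It was 2.35, 2.66 and 2.29 in 2KR-MYB cells and 1.71, 1.75 and 1.75 in ANAA-MYB cells. Each 2KR-MYB library had the higher ratio. The log2 ratio was 1.28 ± 0.11 and 0.80 ± 0.022 (SD, n = 3 each), a difference of 0.48 with an exact two-sided permutation p = 0.1, the smallest possible here.

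**Figure D2:**
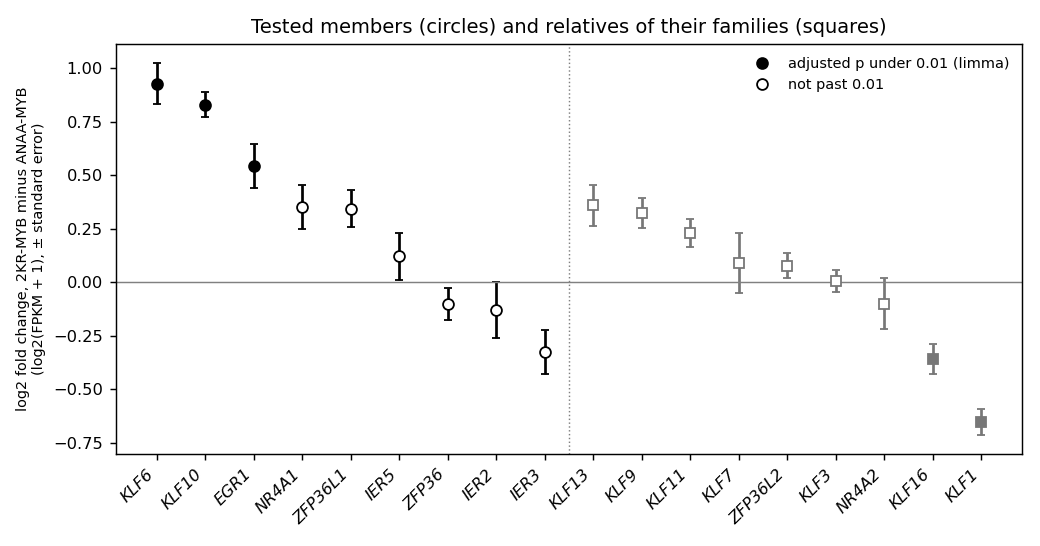
Log2 fold changes (2KR-MYB minus ANAA-MYB, log2(FPKM + 1) scale) with their standard errors for the 9 tested members and 9 tested relatives of the same families. KLF6, KLF10 and EGR1 passed upward, and KLF1 and KLF16 passed in the other direction.

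The order of the levels differed between the rescues in its upper part. KLF6 had the highest FPKM in both. In the 2KR-MYB rescue KLF10 came next, above and apart from IER5, ZFP36L1, IER2, IER3 and EGR1, whose neighbours in that order overlapped in their libraries. In the ANAA-MYB rescue KLF6 was followed by IER3, IER5, IER2, KLF10 and ZFP36L1, and each of these overlapped with the next. EGR1 stood above and apart from ZFP36 in 2KR-MYB cells, whereas in ANAA-MYB cells it came after ZFP36 and overlapped with it. NR4A1 and KLF4 were the lowest of the members in both rescues, each apart from the gene above it.

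The spread among replicates was uneven. Replicate 2 of the 2KR-MYB rescue had the highest FPKM of its group in 8 of 10 members, and replicate 3 the lowest in 8 of 10. Over all tested genes, replicate 2 was the highest in 35.5% and replicate 3 the lowest in 29.4%. In the ANAA-MYB rescue the highest value fell in replicates 1, 2 and 3 in 4, 4 and 2 members. The SD of FPKM was larger in 2KR-MYB cells in 9 of 10 members and the coefficient of variation in 8 of 10, against 48.2% of tested genes for the latter. Members are not independent of each other within a library, so these counts describe 6 libraries. Over all tested genes, libraries of a rescue correlated at 0.983 to 0.989 (Pearson's r of log2(FPKM + 1) across genes) and libraries of different rescues at 0.968 to 0.973.

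**Figure D3:**
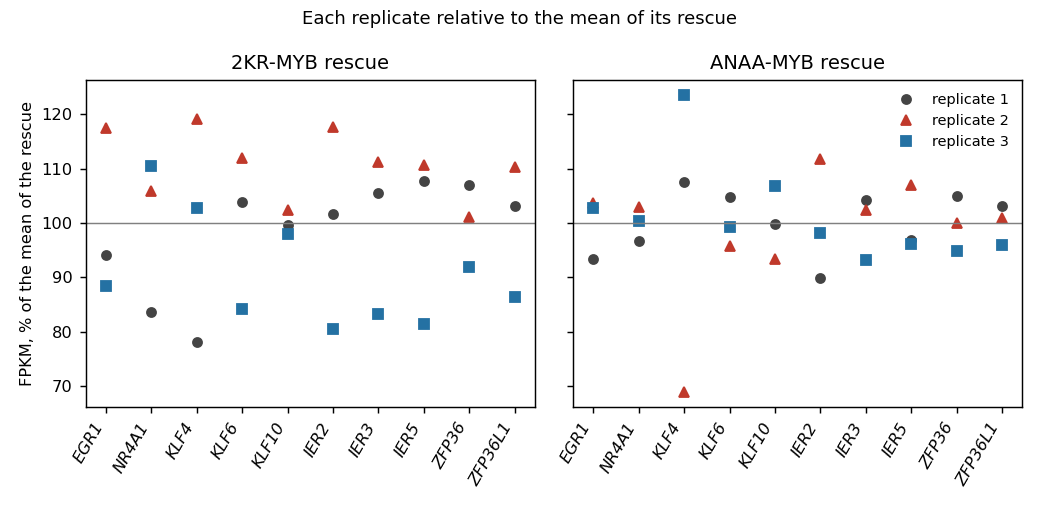
FPKM of each member in each replicate as a percentage of the mean of its rescue, in the 2KR-MYB (left) and ANAA-MYB (right) rescues. Replicate 2 was the highest and replicate 3 the lowest of the 2KR-MYB libraries in 8 of 10 members each.

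For each member, the tested gene of the lists below with the most similar replicate pattern was found by the mean absolute difference over the 6 libraries of log2(FPKM + 1) after the mean of each rescue was removed. For IER3 this gene was JUN (0.018), for ZFP36L1 the small MAF factor gene MAFK (0.023), for IER5 JUNB (0.025) and for KLF6 ATF3 (0.045). The closest gene was GADD45A to IER2 (0.045), BTG2 to NR4A1 (0.047), MRTFA to EGR1 (0.034), ARAF to KLF10 (0.026) and MAP2K2 to ZFP36 (0.025). For KLF4, whose values hardly vary on this scale, it was NAB1 (0.0099). With 3 libraries a rescue and 106 candidate genes, such likeness is a description of a few values.

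The relatives of the members in the same gene families were counted by the same fit. Of 21 relatives (other EGR, NR4A, KLF, IER and ZFP36 genes), 9 were tested, none was called higher in 2KR-MYB cells by limma, and 2, KLF1 and KLF16, were called higher in ANAA-MYB cells. At an unadjusted p under 0.05 (limma), 3 relatives were higher in 2KR-MYB cells and 2 in ANAA-MYB cells. KLF1, the erythroid Krüppel-like factor, held 20.2, 19.9 and 17.6 FPKM in 2KR-MYB cells and 30.2, 30.6 and 31.5 FPKM in ANAA-MYB cells. Its groups were far apart, on the other side from KLF6 and KLF10 (log2 fold change -0.65, standard error 0.062, adjusted p = 0.00033, limma). KLF16 had a log2 fold change of -0.36 (adjusted p = 0.0079, limma) and lost its call when any 1 of the 6 libraries was left out, which left 1 relative called, and also under upper quartile scaling, equal sum scaling and quantile normalization. Under upper quartile scaling, and also without a variance trend, 1 relative, KLF9, was called higher in 2KR-MYB cells. KLF9, KLF11 and KLF13 lay above the ANAA-MYB libraries in all 2KR-MYB libraries with log2 fold changes of 0.32, 0.23 and 0.36 and did not pass. The closest relatives of other members overlapped, with log2 fold changes of 0.077 for ZFP36L2 and -0.10 for NR4A2, as did KLF3 (0.0061) and KLF7 (0.089). EGR2, EGR3 and EGR4 were below the filter, with no library above 0.185 FPKM.

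Of 45 other immediate early genes, 36 were tested, with a median log2 fold change of 0.22. By limma, 10 were called higher in 2KR-MYB cells, where 5.57% of all tested genes were. None was called higher in ANAA-MYB cells, where 7.42% of all tested genes were. The list was chosen with earlier results of these data known and is no independent evidence of its direction. The 5 with the smallest adjusted p were BTG2 (log2 fold change 1.19), PPP1R15A (0.80), TNFAIP3 (0.69), ID2 (0.77) and ATF3 (0.85), which encode an antiproliferative protein, a phosphatase subunit of the stress response, an inhibitor of NF-κB signalling, an inhibitor of bHLH factors and a CREB family factor. The count higher in 2KR-MYB cells was 5 without replicate 1 and 5 without replicate 2 of the 2KR-MYB rescue. It was 4 without replicate 2 and 6 without replicate 3 of the ANAA-MYB rescue, and 6 without the filter on low values. The count higher in ANAA-MYB cells was 1 without replicate 3 of either rescue and with the filter at 5 FPKM, and 3 at the threshold of 0.05. At an unadjusted p under 0.05, 15 were higher in 2KR-MYB cells and 3 in ANAA-MYB cells.

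The genes that act upstream of the members or with their products were taken next. The 18 genes of the signalling that induces early genes were all tested. They were ERK pathway kinases, ETS and MRTF partners of serum response factor, CREB1 and ATF1. None was called higher in 2KR-MYB cells, and ELK4 was called higher in ANAA-MYB cells (log2 fold change -0.47, adjusted p = 0.0011, limma). At an unadjusted p under 0.05 (limma), 0 were higher in 2KR-MYB cells and 3 in ANAA-MYB cells. The median over the list was -0.049. SRF, the gene of serum response factor, was counted among the other immediate early genes. It was not called (log2 fold change 0.21, adjusted p = 0.025, limma), and its 2KR-MYB libraries all lay above the ANAA-MYB libraries. None of the 9 corepressors and partners of EGR1, NR4A1 and KLF10 was called in either direction by limma (median -0.051), and at an unadjusted p under 0.05 there was 1, higher in ANAA-MYB cells. Of 21 genes of AU-rich mRNA decay, none was called higher in 2KR-MYB cells and CNOT7, a deadenylase of the CCR4-NOT complex, was called higher in ANAA-MYB cells. CNOT7 held 54.8, 56.3 and 61.7 FPKM against 88.0, 97.5 and 102.0 FPKM, a log2 fold change of -0.72 (SE 0.069, limma adjusted p = 0.00032). At an unadjusted p under 0.05 (limma), 7 of the list were higher in 2KR-MYB cells and 1 in ANAA-MYB cells. All 2KR-MYB libraries lay above all ANAA-MYB libraries in 5 of the 21 (20.1% of tested genes). They lay below them in 3 (24.8% of tested genes). The median of the list was 0.047. Whether the neighbours of ELK4 and CNOT7 on their chromosomes differed in the same direction was not tested.

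MYB itself, whose gene also collects reads of the constructs, held 69.0, 61.2 and 67.5 FPKM in 2KR-MYB cells and 53.6, 55.3 and 62.0 FPKM in ANAA-MYB cells (log2 fold change 0.21, standard error 0.070, adjusted p = 0.062, limma). Of 10 erythroid markers, all tested, 3 (KLF1, GATA1 and TFRC) were called higher in ANAA-MYB cells, where 7.42% of all tested genes were. None was called higher in 2KR-MYB cells, where 5.57% of all tested genes were. At an unadjusted p under 0.05 (limma), 2 of the 10 were higher in 2KR-MYB cells and 5 in ANAA-MYB cells. All 2KR-MYB libraries lay above all ANAA-MYB libraries in 2 (20.1% of tested genes), TAL1 (log2 fold change 0.30) and HBE1 (0.23). They lay below them in 5 (24.8% of tested genes). The call of TFRC was lost under each of the 3 other scalings, and KLF1 and GATA1 kept theirs. The summed level of the 10 was 1799 to 1928 FPKM in 2KR-MYB cells and 2012 to 2440 FPKM in ANAA-MYB cells. Its largest part was HBG2, at 767, 876 and 861 FPKM in 2KR-MYB cells and 902, 919 and 1161 FPKM in ANAA-MYB cells. HBG2 was not called (adjusted p = 0.12, limma), so the sum does not stand for the list. Of 10 markers of other blood cells, 4 were tested and 3 (LYZ, CD3D and NKG7) were called higher in ANAA-MYB cells, none higher in 2KR-MYB cells. All 10 summed to 40.6 to 46.5 FPKM in 2KR-MYB cells and 68.8 to 95.5 FPKM in ANAA-MYB cells, and MS4A1 was at 0 in every library. CD3D held the largest part of both sums, with means of 27.8 and 52.9 FPKM. The part of these differences in the members' values was not tested. A lower share of cells with a transcript and less of it per cell cannot be told apart in such bulk samples.

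The position of the members was taken up by comparing each with the 10 tested genes on each side of them. The neighbours of KLF6 had a median log2 fold change of -0.050, those of EGR1 of 0.040 and those of ZFP36L1 of 0.063, each below the value of its member. With 5 and with 20 neighbours on each side the medians were -0.097 and -0.013 for KLF6 and 0.15 and 0.0051 for EGR1. Around KLF10 the median was 0.13, with 15 of 20 neighbours above 0. It was 0.13 with 5 and 0.12 with 20 neighbours on each side, and 32 of the 40 in the widest window were above 0. IER2 lay in a stretch where 3 of 20 neighbours were above 0 and 2 were called higher in ANAA-MYB cells, with a median of -0.18 beside its own -0.13. The neighbours of IER3 had a median of 0.065, of the other sign than IER3, and 5 of 20 were called higher in 2KR-MYB cells. The median around IER3 was 0.16 with 5 and 0.0051 with 20 neighbours on each side.

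**Figure D4:**
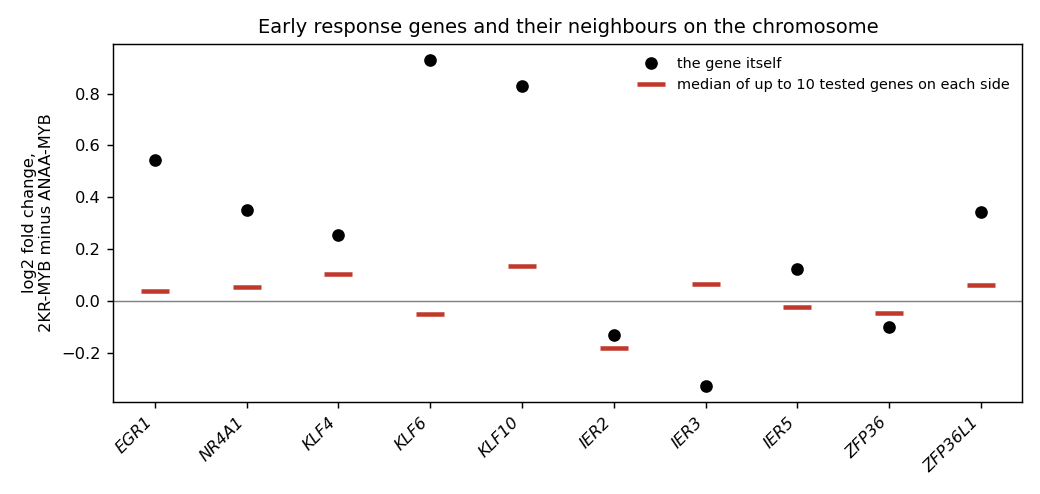
Log2 fold change (2KR-MYB minus ANAA-MYB, log2(FPKM + 1) scale) of each member beside the median over up to 10 tested genes on each side of it on the chromosome. KLF6, KLF10 and EGR1 lay above their neighbours' medians, whereas IER2 and ZFP36 lay close to theirs.

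The members varied in exon number and in AU pentamers. In the MANE Select transcripts, the members had a median of 2 exons, against 9 in the 10558 tested genes with such a transcript, and 6 of 10 members had at most 3 exons, as did 11.4% of tested genes. The pentamer AUUUA occurred a median of 4 times in the 3′ untranslated region of a member and 2 times in that of a tested gene, or 2.77 and 1.72 times per kilobase. In density, 7 of 10 members lay above the median of the tested genes, and EGR1, KLF6 and IER2 lay below it. IER5 held the most copies with 10, ZFP36L1 held 8, and KLF6 and IER3 held 6 each. By density IER3 (8.14 per kilobase) and ZFP36 (7.06 per kilobase) came first, and neither was called. EGR1 held 1 copy and IER2 none. The called genes KLF6, KLF10 and EGR1 had 1.69, 2.23 and 0.82 copies per kilobase, below the median of the members in each case.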

How the data were processed

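RNA was sequenced from K562 clones expressing 2KR-MYB or ANAA-MYB after knockdown of endogenous MYB (3 replicates each). The submitters' processing notes name bcl2fastq 2.18.0.12, Trimmomatic 0.36, TopHat2 2.1.1, Cufflinks, Cuffdiff 2.2.1 and GRCh38, and the authors deposited FPKM values (fragments per kilobase, scaled to the mapped fragments) per gene and replicate. For the annotation and the scaling between libraries, the sources used here give nothing. The 12 other columns of per-sample values were not used, and columns of the authors' own comparisons (expression ratios and q-values) were left out.

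Depth is unknown: at most 7.4% of the ratios between libraries of values under 0.5 FPKM lay within 1% of the commonest ratio, so no reads were recovered. Genes that averaged 1 FPKM or more entered a limma 3.58.1 fit (R 4.3.3) of log2(FPKM + 1) on the rescue, with trended empirical Bayes moderation, Benjamini-Hochberg adjustment over all tested genes and the study's threshold of 0.01. The fit was also run on simulated data with errors drawn independently for each gene and library. Such data lack shifts that genes share within a replicate, and no result here rests on that run. Single members and the ratio of ZFP36L1 to ZFP36 were also compared by exact two-sided permutation tests (scipy 1.17.1). Same-numbered libraries did not deviate together (correlations of -0.052, -0.035 and -0.0026), so the replicate number was no block. Figures were drawn with matplotlib 3.10.9.

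Positions and promoters came from the RefSeq annotation of GRCh38.p14, and transcript structure, without coordinates, from the MANE Select transcripts of GENCODE v44. The members and the lists were chosen with earlier results of these data known. Named are all members, MYB, from each list up to 5 genes past the threshold by smallest adjusted p, tested family relatives, and for each member the tested list gene with the most similar replicate pattern. EGR2, EGR3, EGR4 and MS4A1, which were not tested, and SRF, TAL1, HBE1 and HBG2, which did not pass, lie outside this rule. They were named after their values were seen. Alternatives were pseudocounts of 0.1 and 0.01, no filter, a filter at 5 FPKM, upper quartile and equal sum scaling, quantile normalization, a robust variance prior, no variance trend, a replicate block, a threshold of 0.05, 5 or 20 neighbours on each side, and each library left out in turn. Counts of the lists under these settings were added after the data were seen. One further erythroid marker is not reported here and was left out of the list counts.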

Additional observations from a re-analysis of the deposited data

How the results depend on the processing

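KLF6 and KLF10 kept direction and call in all 17 alternatives. Counted among these, here and for EGR1, is the threshold of 0.05, which uses the main fit and cannot lose a call. Under the threshold of 0.05, 5 members were called higher in 2KR-MYB cells and 1 higher in ANAA-MYB cells. With each library left out in turn, between 2 and 4 members were called higher in 2KR-MYB cells, and the log2 fold change of IER2 ranged from -0.25 to 0.0058, the one change of sign among the members. Over all tested genes, the counts higher in 2KR-MYB and in ANAA-MYB cells were 393 and 549 without the filter on low values, which adds genes to the adjustment, and 1522 and 1880 at the threshold of 0.05. Leaving out 1 library gave 314 to 457 and 506 to 682, with fewer samples in the fit. With the replicate number as a block the counts were 411 and 678, and 2 members were called, EGR1 being lost at an adjusted p of 0.010 (limma). The shared numbers do not pair the libraries, so this fit is given as a count only. With 3 libraries a rescue and unknown depth, KLF4 and the other genes under 1 FPKM could not be resolved further.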
